A study of Mus musculus with 27 samples.

Results

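Fibroblast growth factors (FGFs), Wnt proteins and their cell surface receptors were represented on the array by 48 mouse genes of the 573 mouse genes compared. They were chosen by name, as every mouse probe set whose platform symbol starts with Fgf, Wnt or Fzd, and where several sets stood for the same gene, that with the highest mean log2 intensity over all arrays was kept. The 48 genes came from 55 probe sets and comprised 22 FGF ligands, 14 Wnt ligands, 4 FGF receptors and 8 Frizzled receptors. The mice were untreated wild-type males of the inbred strain C57BL/6 at 6 to 8 weeks of age. Lung, liver, kidney, brain, testis, thymus, spleen, lymph node and bone marrow gave 3 arrays each, 27 in total. These were custom 1-colour Affymetrix arrays for genes that make, carry or bind glycans, together with growth factor and cytokine genes. Whether replicate arrays stand for separate mice is not stated in the labels, and the p-values therefore measure only the spread between arrays.

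FGFs are signalling proteins that bind receptor tyrosine kinases, the FGF receptors, with heparan sulfate chains of the cell surface as a cofactor. The members Fgf11, Fgf12, Fgf13 and Fgf14 are an exception: they stay inside the cell, where they bind voltage-gated sodium channels, and are grouped with the FGFs by sequence. Wnt proteins are lipid-modified ligands that bind Frizzled receptors, membrane proteins with several spanning segments, and act over short distances in development and tissue renewal. Both families are best known from embryonic development, where local groups of cells make each ligand. In RNA from whole tissue, fewer cells of a type cannot be told apart from less RNA per cell.

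Human probe sets on the same arrays gave a measure of cross-species background. Their 95th percentile lay between 508 and 660 on single arrays and their median between 193 and 230.5. A gene was taken as above background in a tissue when all 3 of its arrays exceeded the 95th percentile of their own array. By this measure a level inside the human range cannot be told from non-specific signal, and a fold between such levels is a ratio of signals. The number of arrays limits the precision. Tissue labels were checked with marker genes: Asgr2, Mbl1 and Mbl2 were highest in liver, Sftpd and Cxcl15 in lung, Ltf, Csf3r and Cxcr2 in bone marrow, Glycam1, Fcer2a and Ltb in lymph node, Cd72 and Cd74 in spleen, and Ccl25 in thymus. Fcer2a was also listed for spleen, where it was 5.74-fold higher, and Il7r, listed for thymus, was highest in lymph node and was not called in thymus (1.92-fold). Ptn, Ncan, Bcan and Mag were highest in brain, although only Ptn passed the size threshold there. The kidney and testis markers were not among the genes tested, so these labels were not checked. The markers were listed with earlier results of these data known, so the check of the other labels is not independent. Over the 48 genes, the best match of each of the 27 arrays was an array of the same tissue (27 of 27).

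Most of these growth factor and receptor genes had tissue means less than 2-fold apart. A moderated F test over the 9 tissues (limma, Benjamini-Hochberg adjusted over 573 genes) called 8 of the 48 genes (16.7%) at an adjusted p under 0.05 with tissue means at least 2-fold apart, against 50.1% of all genes tested. The called genes were the ligands Fgf1, Fgf12, Fgf13 and Fgf22 and the receptors Fgfr4, Fzd1, Fzd2 and Fzd4. The call was made in 4 of 36 ligands and 4 of 12 receptors, and whether these shares differ was not tested. Without the size threshold the limma F test passed 34 members (70.8%), against 87.1% of all genes. The highest tissue mean was a median 1.45-fold above the lowest in the members and 2.004-fold in all genes. Their probe sets were also dimmer, with a median intensity of 228 against 314 over all genes. Intensities of different probe sets do not compare RNA amounts between genes.

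**Figure D1:**
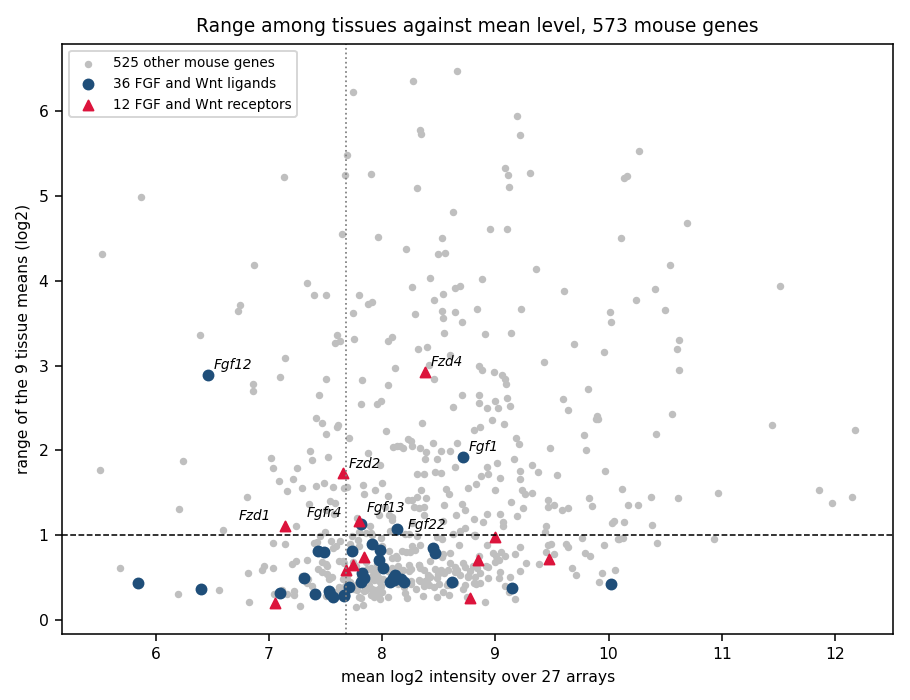
Each point is 1 mouse gene, with its mean log2 intensity over 27 arrays on the horizontal axis and the range of its 9 tissue means (log2) on the vertical axis. Blue circles are the 36 ligands, red triangles the 12 receptors and grey points the 525 other genes. The dashed line is the size threshold of 1 and the dotted line the pooled median of the human probe sets (205 on the linear scale). The 8 named genes lie above the dashed line.

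Most members stayed inside the background range. Only 7 of 48 (14.6%) were above background in at least 1 tissue, against 42.1% of all genes. These were Wnt1 in 9 tissues, Fgfr2 in 7, Fzd7 in 3, Fzd4 and Fgf1 in 2 each, and Fgfr1 and Fgf18 in 1 each. For Fgfr2, Fzd7 and Fzd4 this held for the probe set used here, and the second set of each was above background in no tissue. The other 41, 33 ligands and 8 receptors, were above it in no tissue, and 15 members had a mean level under the pooled human median of 205. Of the 8 called genes, only Fzd4 and Fgf1 reached levels above background.

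**Figure D2:**
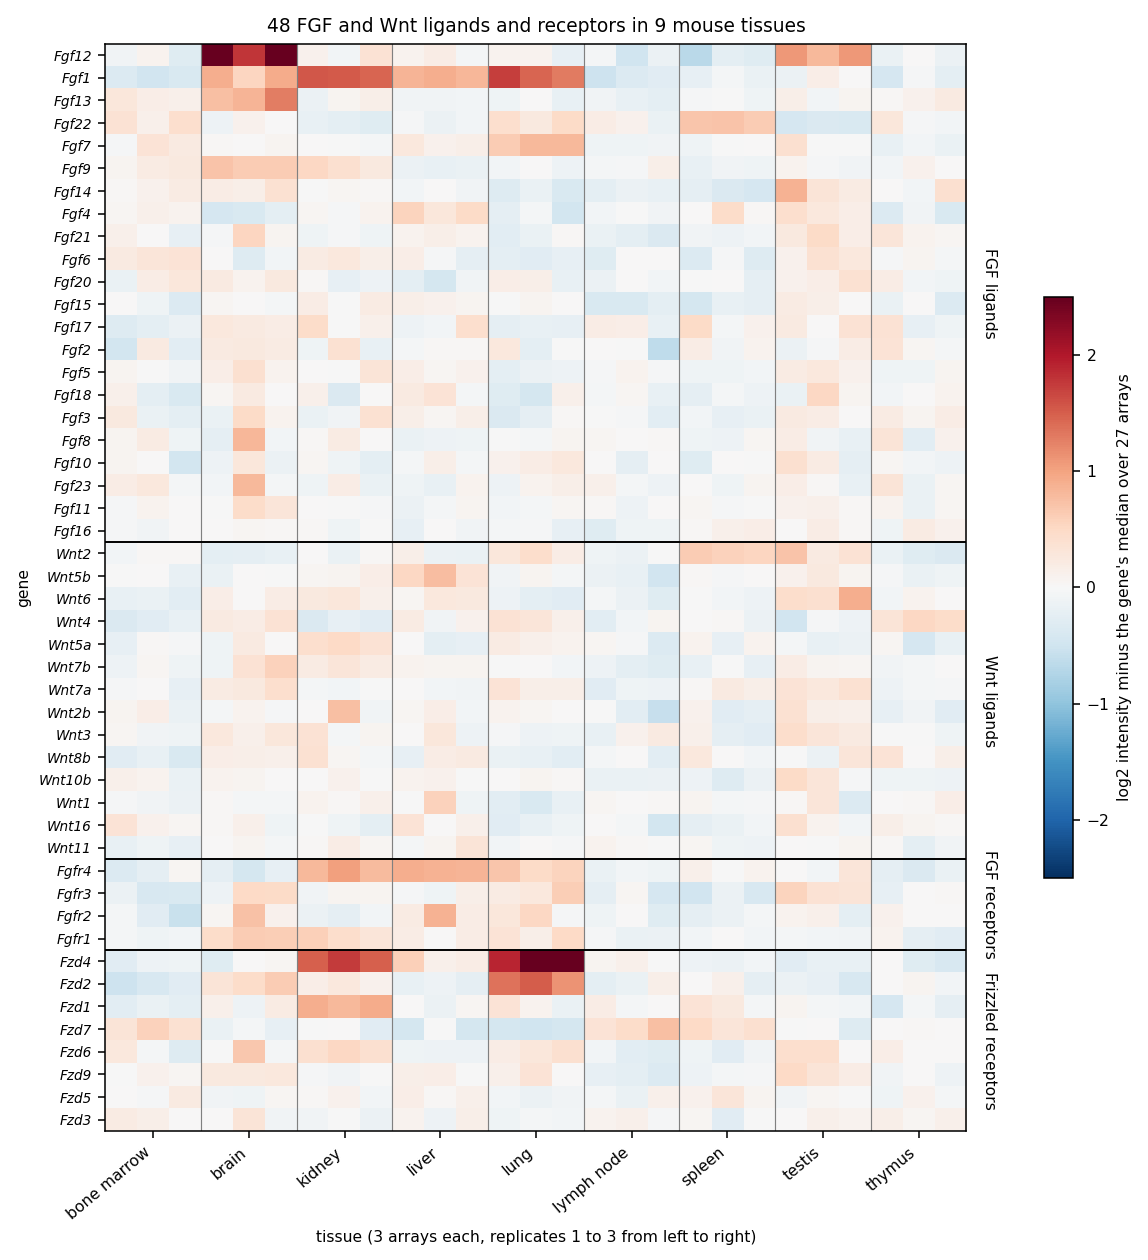
The 48 genes are rows, grouped by role and ordered by the range of their tissue means, and the 27 arrays are columns, 3 for each tissue. Colour gives log2 intensity minus the median of that gene over all arrays, from blue (lower) to red (higher), cut at 2.5 on either side. The strongest colour lies in Fgf12 in brain, Fgf1 in kidney and lung, Fzd4 in lung and kidney and Fzd2 in lung, and most rows are pale throughout.

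Each tissue was then set against the mean of the other 8. Over these comparisons 6 of 432 member tests (1.39%) were called higher, in 4 genes, against 6.63% of the tests of all genes. They were Fgf1 in kidney and in lung, Fgf12 in brain, Fzd2 in lung, and Fzd4 in kidney and in lung. With limma, 0 of the 432 were called lower, against 5.18% over all genes. In 93 of them the gene was lower at an unadjusted limma p under 0.05 and in 78 at an adjusted p under 0.05. The largest of these differences was 1.85-fold (Fgf1 in bone marrow), under the size threshold. The share over all genes at these cuts is not given here, so the counts cannot be read as few or many. In the 36 pairs of tissues, 65 of 1728 member tests (3.76%) were called, against 16.2% for all genes, all in the same 8 genes.

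Fgf1, also called acidic FGF, is a broadly acting ligand that binds all FGF receptors. It had an intensity of 946, 931 and 878 on the kidney arrays and 1059, 877 and 784 on the lung arrays. Liver arrays read 576, 604 and 573, and brain arrays 601, 463 and 609. The other 5 tissues lay between 223 and 358, so that the levels formed an upper, a middle and a low group with no overlap between them. Fgf1 was 2.41-fold higher in kidney (log2 difference 1.27 ± 0.09 SE, limma adjusted p = 2.92e-11) and 2.36-fold higher in lung (1.24 on the log2 scale, limma adjusted p = 3.07e-11) than in the mean of the other 8 tissues. Kidney and lung did not differ beyond their spread (0.03 ± 0.12 on the log2 scale, limma adjusted p = 0.865), nor did brain and liver (1.06-fold, limma adjusted p = 0.659). Kidney exceeded liver 1.57-fold (limma adjusted p = 0.000135), a difference under the size threshold.

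Fgf12, which binds neuronal sodium channels, was the ligand with the largest range. Its brain arrays read 513, 244 and 499 and its testis arrays 150.5, 125 and 151. The other 7 tissues lay between 44.5 and 90.6, well under the human median, and neither brain nor testis overlapped them. Replicate 2 of brain lay well under the other brain arrays, yet above every array of the other tissues. The brain difference was 5.44-fold (2.44 ± 0.15 on the log2 scale, limma adjusted p = 1.91e-12). Leaving out each array in turn gave 4.78- to 6.93-fold. Brain exceeded testis 2.81-fold (limma adjusted p = 1.70e-06), and testis exceeded spleen 2.64-fold (limma adjusted p = 2.19e-06).

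Fgf13, another of the intracellular members, was also highest in brain, at 351, 377 and 506. The other 24 arrays lay between 177 and 255 and none overlapped brain. Its brain difference was 1.95-fold (0.96 ± 0.08 on the log2 scale, limma adjusted p = 5.92e-10), just under the size threshold, and its range of 2.19-fold was called by the F test (limma adjusted p = 4.88e-08). Without brain replicate 3 the range was 1.96-fold and the F call was lost. With quantile normalization or median centring the brain difference passed the threshold, at 1.07 and 1.04 on the log2 scale. Fgf11, the third intracellular member, had a range of 1.23-fold (limma adjusted p = 0.140). Fgf14, the fourth, differed between its probe sets and is described with them.

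The 250 bases before the start of transcription of Fgf12 and Fgf13, the called ligands highest in brain, are shown from RefSeq (GRCm38.p6) with matches to 3 promoter motifs in capitals. The motifs, searched on both strands with overlapping matches counted, were the TATA box (TATAAA), the CCAAT box (CCAAT) and the GC box (GGGCGG). Each gene has 4 starts in the table, of which the furthest upstream is printed, 5′ to 3′ on the strand of the gene: chr16:28753244-28753493 on the minus strand for Fgf12 and chrX:59585573-59585822 on the minus strand for Fgf13.
Fgf12: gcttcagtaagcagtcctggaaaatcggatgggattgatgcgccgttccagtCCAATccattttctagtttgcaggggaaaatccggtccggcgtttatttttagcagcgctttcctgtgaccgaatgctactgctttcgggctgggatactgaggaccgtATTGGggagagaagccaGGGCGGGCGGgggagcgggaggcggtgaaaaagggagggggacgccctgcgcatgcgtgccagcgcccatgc
Fgf13: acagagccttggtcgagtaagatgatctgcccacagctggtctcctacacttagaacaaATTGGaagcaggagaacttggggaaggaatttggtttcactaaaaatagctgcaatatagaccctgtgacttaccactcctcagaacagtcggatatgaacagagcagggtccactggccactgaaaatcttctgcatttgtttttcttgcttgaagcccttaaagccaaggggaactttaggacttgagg
The Fgf12 window held 2 GC boxes, 2 CCAAT boxes and 18 CpG dinucleotides. The Fgf13 window held 1 CCAAT box and 2 CpG dinucleotides, and no match to the letters of the other motifs. The windows of these ligands thus differ in base content, although both genes were highest in brain. The matches are descriptions of letters, not tests of binding.

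Fgf22, a ligand known from synapse formation and skin, was the only called ligand with its highest level in spleen. Spleen arrays read 427, 437 and 412 and testis arrays 199.5, 206 and 203. All spleen arrays lay above, and all testis arrays below, every other array of the gene, which ran from 216 to 369. The range of 2.10-fold was called (limma adjusted p = 4.23e-08), but all levels lay inside the background range. The call was lost with quantile normalization (0.85 on the log2 scale) and with median centring (0.88). Spleen exceeded lung 1.23-fold (limma adjusted p = 0.0248) and bone marrow 1.30-fold (limma adjusted p = 0.00666).

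**Figure D3:**
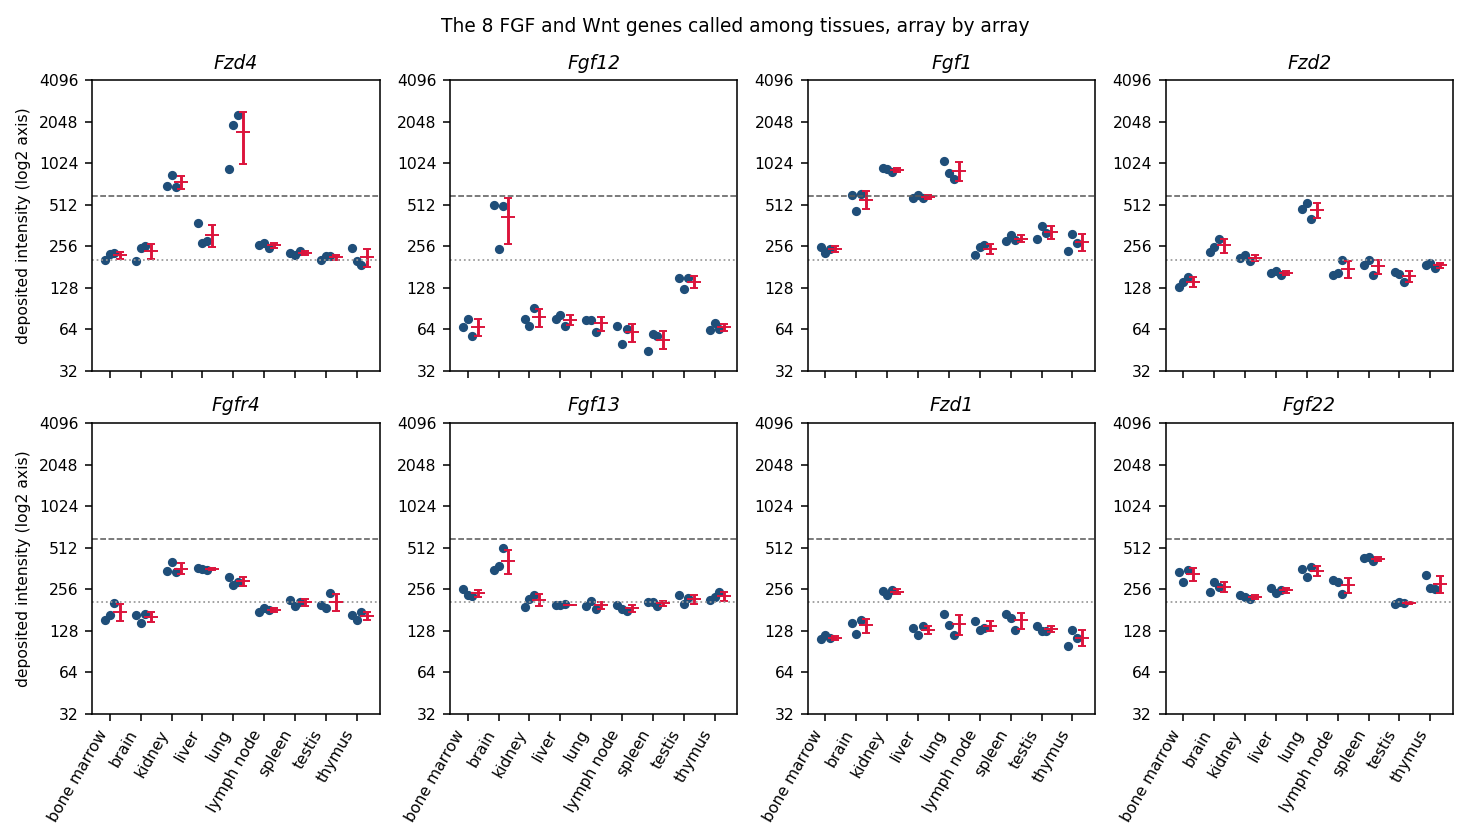
Deposited intensity on a log2 axis is plotted for the 8 called genes in 9 tissues. Blue points are single arrays, and the red mark beside them is the mean with its SD (n = 3). The dashed line is the pooled human 95th percentile (590.1) and the dotted line the pooled human median (205). All lung and kidney points of Fzd4 and Fgf1 lie over the dashed line, as do single brain and liver points of Fgf1, whereas the other 6 genes stay under it.

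The other 18 FGF ligands were not called. Fgf7, a growth factor for epithelial cells, came nearest with a 1.85-fold range: lung arrays read 345.5, 392 and 391.5, above all other arrays, which ended at 293. Fgf9 had a 1.78-fold range, and its brain arrays (389, 364 and 366) lay above all others, with kidney next at 339, 311 and 279.9. Fgf18 read between 424 and 823 over all arrays, and its tissue means, from 506 in lung to 652 in liver, did not differ beyond their spread (limma adjusted p = 0.295). Fgf2, or basic FGF, had tissue means from 50.1 to 66.6, far inside the background range (limma adjusted p = 0.432). Fgf10, which drives branching of the lung in development, had a range of 1.24-fold (limma adjusted p = 0.477), with its highest mean in lung as deposited and in testis under both other scalings. Among the endocrine ligands, Fgf15, Fgf21 and Fgf23 had ranges of 1.38-, 1.47- and 1.24-fold, with highest means in kidney (testis under both other scalings), testis and brain.

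None of the 14 Wnt ligands was called by the limma F test, although 11 of them had an adjusted p under 0.05, as many as at an unadjusted p under 0.05. Their ranges ran from 1.21-fold in Wnt11 to 1.80-fold in Wnt2, with a median of 1.41-fold. Wnt1, known for its part in the formation of the midbrain and hindbrain, had a mean intensity of 1050. It was the only member above background in all 9 tissues, and its array values ran from 800.5 to 1555. The tissue means lay between 867 in lung and 1191 in liver and did not differ beyond their spread (limma adjusted p = 0.210). The liver mean rested on replicate 2 at 1555, and the others read 1041 and 976.5. The background level is a percentile of the human sets, so some of these pass it on every array by construction. The human WNT10B set did so in all 9 tissues. Passing that level does not by itself show RNA of the gene.

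Wnt2, a ligand made by mesenchyme in the developing lung, read 517, 495 and 482 in spleen, 544, 389.7 and 426 in testis and 405, 453 and 378 in lung. Thymus, the lowest tissue, read 298, 270.0 and 261. Spleen was 1.49-fold above the other 8 tissues (0.57 ± 0.08 on the log2 scale, limma adjusted p = 3.06e-06), and its arrays overlapped those of testis. With quantile normalization and with median centring testis had the highest mean.

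In 3 other Wnt ligands all arrays of a tissue lay above the other 24. Wnt5b read 243, 289.8 and 213 in liver and at most 201 elsewhere. Wnt6 read 234, 229.9 and 325 in testis and at most 209 elsewhere. Wnt5a, a ligand best known for signalling without beta-catenin, read 345, 364 and 329.8 in kidney and at most 304 elsewhere. These differences were 1.49-, 1.52- and 1.39-fold against the other 8 tissues, all under the size threshold. Wnt4, which is needed for kidney tubule formation in the embryo, was highest in thymus, at 310.5, 357 and 340.4, which overlapped brain and lung arrays. Its adult kidney arrays, at 195, 216.5 and 205, were among its lowest.

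Receptors showed larger ranges than ligands by description, with a median of 1.66-fold against 1.40-fold. Fgfr4, the FGF receptor through which intestinal FGF signals restrain bile acid synthesis in liver, was the only called FGF receptor. It read 344, 399 and 338 in kidney and 366, 355.5 and 355 in liver. Lung arrays, at 315.5, 273 and 287, lay above the other 6 tissues, which ran from 145 to 240.3. The range was 2.25-fold (limma adjusted p = 8.96e-11). Kidney and liver did not differ beyond their spread (0.004 ± 0.109 on the log2 scale, limma adjusted p = 0.986), and kidney exceeded lung 1.23-fold (limma adjusted p = 0.0264). Against the other 8 tissues the kidney level was 1.72-fold and the liver level 1.72-fold higher, both under the size threshold.

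Fgfr2, the receptor of Fgf7 and Fgf10 on epithelia, had a mean intensity of 728. It was above background in 7 tissues and missed that level in bone marrow and lymph node. The highest arrays were replicate 2 of liver at 1273 and replicate 2 of brain at 1156, against 805 and 792 on the other liver arrays and 715 and 752 on the other brain arrays. Its range was 1.64-fold (limma adjusted p = 0.0120). Fgfr1 was highest in brain, at 587, 658 and 651, with kidney next at 644, 572 and 523, and had a range of 1.64-fold (limma adjusted p = 1.24e-06). Fgfr3 had a range of 1.68-fold (limma adjusted p = 0.000253), with testis, lung and brain means of 302, 293 and 281 at the top. With quantile normalization Fgfr1 and Fgfr2 joined the called genes, at ranges of 1.04 and 1.07 on the log2 scale.

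Fzd4, the Frizzled receptor that also binds the ligand Norrin and is known for its part in retinal blood vessels, had the largest range of all 48 genes. Lung arrays read 928, 1941 and 2282 and kidney arrays 702, 837 and 694. Liver arrays read 375, 272 and 281.5, and the other 6 tissues lay between 188 and 272. All lung arrays stood above all kidney arrays, and both tissues stood clear of the rest, although lung replicate 1 was well under the other lung arrays. The lung difference was 5.86-fold (2.55 ± 0.15 on the log2 scale, limma adjusted p = 8.22e-13) and the kidney difference 2.46-fold (1.30 ± 0.15, limma adjusted p = 1.41e-07). Leaving out each array in turn gave 4.91- to 7.70-fold for lung. Lung exceeded kidney 2.16-fold (limma adjusted p = 8.63e-05), and kidney exceeded liver 2.42-fold (limma adjusted p = 2.10e-05).

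Markers of endothelium were also high in lung, where all 4 measured of 4 listed markers (Pecam1, Tek, Emcn and Cd34) were called higher. In kidney 1 of the 4 was called higher, and in lymph node, where Fzd4 read 260, 272 and 247, also 1. Their summed intensity was 6401 to 7477 on the lung arrays, 1618 to 2149 in kidney, 1442 to 1665 in lymph node and 468 to 998 in the other 6 tissues. Tek was also 1 of the 2 non-member genes most like Fzd4 in its tissue means (r = 0.954 over 9 tissues), beside Bmp4 (r = 0.966). The part of endothelial content in the Fzd4 levels was not tested.

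Fzd2 was likewise highest in lung, where its arrays read 477, 528 and 405.5. Brain followed at 233, 255 and 290.4, and bone marrow was lowest at 130.5, 140 and 153.5. No array of another tissue reached the lung arrays. The lung difference was 2.58-fold (1.37 ± 0.09 on the log2 scale, limma adjusted p = 2.72e-12). Lung exceeded brain 1.81-fold (limma adjusted p = 1.28e-06), and brain exceeded kidney 1.23-fold (limma adjusted p = 0.0497). Of 5 measured stromal markers (Dcn, Bgn, Fmod, Lum and Col14a1), 2 were called higher in lung, 4 in lymph node, 3 in spleen and 1 in thymus. Called lower were 3 in bone marrow, 2 in brain and 1 in testis. The summed intensity of the 5 was 13440 to 15390 on the lung arrays, 9779 to 12200 in lymph node and 903 to 6405 in the other 7 tissues. This sum rests mostly on Dcn and Bgn, the brightest of the 5. Bgn was highest in lung, Dcn, Fmod and Lum in lymph node, and Col14a1 in spleen. In lymph node, Fzd2 read 157.5, 165 and 205, inside the range of the other low tissues, and spleen and thymus arrays lay between 159 and 202. The part of stromal content was not tested.

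Fzd1 was highest in kidney, at 248, 233 and 253, and the other 24 arrays lay between 99.7 and 168. Its range was 2.16-fold (limma adjusted p = 7.64e-07) and its kidney difference 1.86-fold (0.89 ± 0.09 on the log2 scale, limma adjusted p = 1.65e-08), under the size threshold. Kidney exceeded thymus 2.16-fold and bone marrow 2.15-fold, the only called pairs of this gene.

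Fzd7 lay just outside the call, with a 1.97-fold range (limma adjusted p = 3.81e-07). It was high in lymph node at 635.5, 686 and 845.5, in spleen at 707.5, 618 and 663 and in bone marrow at 622, 744 and 652. Lung was lowest at 366.5, 354 and 371, a pattern opposite to those of Fzd2 and Fzd4. Fzd7 was above background in the 3 high tissues only. With median centring its range reached 1.02 on the log2 scale and was called. Fzd3, Fzd5, Fzd6 and Fzd9 had ranges of 1.15-, 1.20-, 1.57- and 1.51-fold.

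The 250 bases before the RefSeq start are printed in the same way for Fzd4, Fgfr4 and Fzd1, called receptors that shared high kidney levels. They lie at chr7:89404116-89404365 on the plus strand for Fzd4, chr13:55152568-55152817 on the plus strand for Fgfr4 and chr5:4758217-4758466 on the minus strand for Fzd1 (GRCm38.p6, 5′ to 3′ on the strand of the gene). Capitals again mark the TATA, CCAAT and GC boxes and their reverse complements.
Fzd4: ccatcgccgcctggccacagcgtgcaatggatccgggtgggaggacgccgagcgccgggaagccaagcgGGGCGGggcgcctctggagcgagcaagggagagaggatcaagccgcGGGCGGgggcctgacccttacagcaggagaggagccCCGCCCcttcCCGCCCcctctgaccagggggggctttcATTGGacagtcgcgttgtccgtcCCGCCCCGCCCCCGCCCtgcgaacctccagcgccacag
Fgfr4: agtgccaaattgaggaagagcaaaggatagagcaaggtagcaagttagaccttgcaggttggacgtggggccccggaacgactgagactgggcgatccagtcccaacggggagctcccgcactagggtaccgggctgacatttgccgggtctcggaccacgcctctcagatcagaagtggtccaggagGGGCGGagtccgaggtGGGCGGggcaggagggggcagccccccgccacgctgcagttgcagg
Fzd1: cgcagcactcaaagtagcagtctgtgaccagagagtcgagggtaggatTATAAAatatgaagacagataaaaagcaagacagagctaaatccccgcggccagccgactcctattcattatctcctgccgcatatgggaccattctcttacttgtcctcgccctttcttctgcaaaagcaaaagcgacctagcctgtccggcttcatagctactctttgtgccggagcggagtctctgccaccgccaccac
The Fzd4 window held 7 GC boxes, 1 CCAAT box and 25 CpG dinucleotides, more CpG than 89.3% of the windows in the table. The Fgfr4 window held 2 GC boxes and 15 CpG dinucleotides. In the Fzd1 window 1 TATA box and 12 CpG dinucleotides were found. No motif of the 3 was common to these windows. Over all 46 windows of the 36 members matched, 67.4% held a GC box, against 42.6% of 21262 windows of protein-coding genes. A CCAAT box was in 32.6% against 35.4%, and a TATA box in 6.52% against 11.6%. The median number of CpG dinucleotides was 18.5 in the member windows and 10 in those of protein-coding genes.

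Probe sets of the same gene did not always give the same pattern. Of the 48 genes, 6 had more than 1 probe set, and the sets not used above were examined side by side in a fit over all 702 mouse probe sets, an alternative added after the data were seen. For Fzd4 the second set was also highest in lung, then kidney, liver and lymph node, at lower levels, and the order of the other 5 tissues differed. It read 391, 681 and 1240 in lung, 369, 401 and 344 in kidney and at most 139 elsewhere, a 20.6-fold range (limma adjusted p = 1.43e-11). In this set bone marrow, spleen and testis were called lower than the mean of the other 8 tissues. The tissue means of both sets correlated at r = 0.970 over 9 tissues.

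The Fgf14 sets disagreed. The set used above read 388, 264 and 243 in testis and 242, 233 and 277 in brain, with a range of 1.75-fold that was not called. A second set (AV141013_at) read 327, 179 and 327 in brain and 189.8, 189.6 and 155 in thymus, and at most 68.9 in the other 7 tissues. In this set brain was 5.93-fold (2.57 ± 0.18 on the log2 scale, limma adjusted p = 1.77e-11) and thymus 3.73-fold (limma adjusted p = 6.16e-09) above the other 8. Brain replicate 2 was the low brain array here, as it was for Fgf12. Another set was highest in testis, at 261.5, 213 and 201, with a 2.29-fold range that was called. Over the 9 tissue means the brain and thymus set correlated at r = 0.469 with the set used.

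For Fgfr2 the second set had a 3.71-fold range (limma adjusted p = 4.91e-07), where the set used had 1.64-fold. It read 184, 227 and 77.2 in lung and 147, 127 and 152 in brain, both far under the level of the set used, and lung replicate 3 lay under all brain arrays. Against the other 8 tissues, lung was called 2.075-fold higher in this set (limma adjusted p = 6.78e-05). Spleen was called 2.105-fold lower (limma adjusted p = 5.05e-05). The second Fzd7 set, with a mean of 58.4, was not called (limma adjusted p = 0.0604) and correlated at r = -0.474 with the set used. Counting a gene when any of its sets was called gave 10 members (20.8%), the 8 above with Fgf14 and Fgfr2, against 52.9% of all genes by the same rule.

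**Figure D4:**
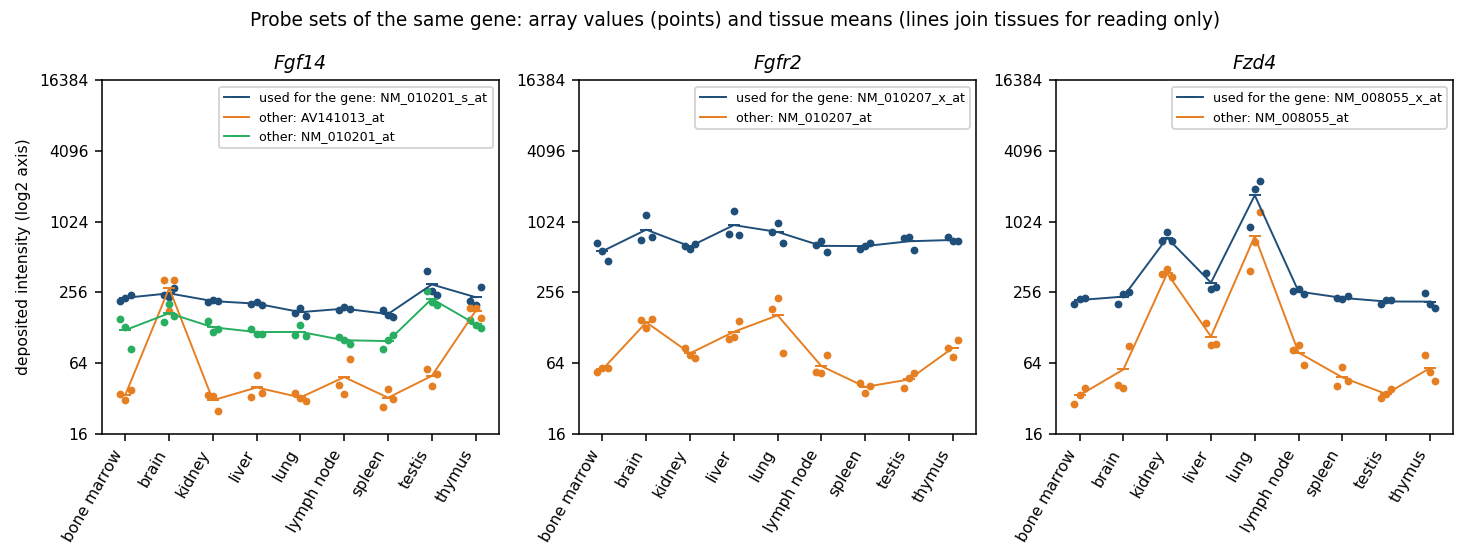
Deposited intensity on a log2 axis is plotted for all probe sets of Fgf14, Fgfr2 and Fzd4 in 9 tissues. Points are single arrays and lines join the means of 3 arrays, for reading only. Both Fzd4 sets are highest in lung and then in kidney, and the set not used spans a wider range. The Fgf14 set AV141013_at peaks in brain and thymus, where the other 2 sets of that gene peak in testis.

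By tissue, brain held the highest mean of 11 members (22.9%, against 11.2% of all genes), testis of 9 (18.8% against 14.3%), kidney of 7 (14.6% against 11%) and lymph node of 1 (2.08% against 12%). Lymph node held the lowest mean of 11 members (22.9% against 10.6%), lung of 10 (20.8% against 11.7%) and bone marrow of 8 (16.7% against 14%). These counts include members whose tissue means did not differ beyond their spread. Among those highest in brain, these were Fgf2, Fgf8, Fgf11, Fgf17 and Fgf23 (limma F test, adjusted p from 0.0753 to 0.847). The order of tissues also depended on the scaling. With quantile normalization testis held the highest mean of 22 members (45.8%, against 26.7% of all genes) and brain of 11, and with median centring testis held 19 (39.6% against 20.9%) and brain 12. The highest tissue of 17 members differed under at least 1 of these scalings. Of the called genes only Fgfr4 was among them, where kidney and liver changed places. Under these scalings bone marrow held the lowest mean of 2 members each.

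The median member lay 0.14 above the other tissues on the log2 scale in brain, where 36 of 48 were above 0, and 0.18 below them in lymph node, where 6 were above 0. Over all 573 genes these medians were -0.07 and -0.05, and the share of all genes above 0 is not given here. With quantile normalization the member medians were 0.22 in brain and -0.26 in lymph node, against 0.03 and -0.17 over all genes. With median centring they were 0.22 and -0.28, against 0.01 and -0.15. In testis the member median was 0.09 as deposited and 0.23 with quantile normalization, against -0.07 and 0.10 over all genes. Most members lay inside the background range, and the human median itself ran from 193 to 230.5 between arrays. Whether shifts of background between tissues enter these member medians was not tested.

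In 11 members (22.9%) all 3 arrays of a tissue lay above the other 24 arrays, against 37.7% of all genes. In brain these were Fgf9, Fgf12 and Fgf13, in lung Fgf7, Fzd2 and Fzd4, in kidney Fzd1 and Wnt5a, and in liver, spleen and testis Wnt5b, Fgf22 and Wnt6. In 3 members (6.25%) a tissue lay below all other arrays, against 14.5% of all genes: Fgf22 in testis, Fgf5 in lung and Fzd9 in lymph node.

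Some called members followed each other over the 9 tissue means. These correlations are descriptions over 9 points that share their arrays. The highest were r = 0.881 for Fgf12 and Fgf13, 0.816 for Fgf1 and Fzd4, 0.810 for Fzd2 and Fzd4 and 0.761 for Fgf1 and Fgfr4. Pairs of called members ran down to -0.472, for Fgf13 and Fgfr4. Outside the families, the genes most like Fgf12 were L1cam and Bmpr1b (0.964 and 0.949). Chga and Ptn were most like Fgf13 (0.971 and 0.913), Vegfa and Bmp6 most like Fgf1 (0.901 and 0.893) and Pf4 and Il10ra most like Fgf22 (0.860 and 0.845). For the receptors, these genes were Pdgfb and Gmppa for Fzd2 (0.966 and 0.921), Met and Ccl17 for Fgfr4 (0.894 and 0.887) and Gcnt1 and Chst7 for Fzd1 (0.882 and 0.866). Each was picked for its high r among 525 genes. L1cam, Bmpr1b, Gmppa and Ccl17 had log2 ranges of 0.78, 0.69, 0.81 and 0.88, under the size threshold. For members that are direct neighbours in the RefSeq order of protein-coding genes, r was -0.08 for Wnt10b and Wnt1, 0.01 for Fgf6 and Fgf23, 0.08 for Fgf3 and Fgf4 and 0.23 for Fgf4 and Fgf15.

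None of the 14 listed FGF signalling partners (klothos, Sprouty proteins and others) and none of the 22 listed Wnt partners (Lrp5, Lrp6, Dkk and Sfrp genes and others) was among the genes tested, so both pathways were seen here through ligands and receptors alone. Of 32 listed genes for heparan sulfate synthesis and its carrier proteins, 26 were tested, and the limma F test called 11, against 50.1% of all genes. Extl2, a glycosyltransferase, was 3.84-fold higher in brain, and the sulfotransferases Hs3st1 and Hs6st2 were 2.16- and 2.47-fold higher there (limma adjusted p at most 5.13e-09). Hs2st1, which sulfates the uronic acid of the chain, was 2.39-fold higher in lung (limma adjusted p = 2.57e-14), and Gpc4, a glypican carrier, 2.61-fold higher in kidney (limma adjusted p = 1.60e-09). In testis Hs6st1 was 3.10-fold lower and Ext1 2.21-fold lower (limma adjusted p at most 4.13e-09), and Ndst3 was 2.01-fold higher (limma adjusted p = 4.89e-10). Hs6st2 was also 2.52-fold higher in spleen (limma adjusted p = 5.16e-09). These were all the called tests of the 26 genes against the other 8 tissues. Over all genes 6.63% of such tests were called higher and 5.18% lower. The mean intensities of Hs6st2 (86.6), Ext1 (141), Ndst3 (157) and Gpc4 (160.5) lay under the pooled human median of 205.

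The array also held 61 human probe sets of the same families, which were not used in the tests. For the 53 with a mouse member of the same name, the correlation with the mouse set over 9 tissue means had a median of 0.222 and exceeded 0.8 in 3. FZD2 followed its mouse counterpart (r = 0.971), at 269 to 312 in lung and 56.0 to 191 elsewhere. FGF13 had r = 0.788. The human sets of the other 6 called genes had r between -0.432 (FZD4) and 0.162 (FGF12), and their ranges were all under 1 on the log2 scale. All 61 sets were also part of the background measure, which thus includes signal that followed a mouse gene, as in FZD2.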

How the data were processed

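Total RNA of 27 samples was labelled with biotin and hybridised to 1-colour arrays, per the labels. The deposited table holds linear intensities, 1 for each probe set of each array. How the authors summarised, corrected and scaled them is not given in the sources used here. Array medians over all 1813 probe sets were close, from 221.5 to 243.7, and values were kept as deposited. Names came from the platform annotation, where 1563 probe sets had 1 symbol, 2 several and 248 none. Of these, 702 matched a mouse gene in RefSeq (GRCm38.p6), which updated 1 symbol, and gave 573 genes. The 839 human probe sets served as background and 57 control sets were left out.

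Intensities were raised to a floor of 16, which changed 2 values and none of a member, and log2 was taken. Linear models in limma 3.58.1 (R 4.3.3) had a term for each tissue. The moderated F test compared all tissues, and contrasts set each tissue against the other 8 with equal weights and all 36 pairs against each other. P-values were adjusted by Benjamini-Hochberg over the 573 genes of a comparison. A call needed an adjusted p under 0.05 together with a log2 difference, or range, of 1 or more, and folds are back-transformed log2 differences. The script was tested on simulated data.

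Members, lists and tests were chosen with earlier results of these data known. For the members called by the F test, array values are given for the tissues that stood apart and as a range for the rest. The 3 ligands and 3 receptors of highest mean intensity are also named. Other members are named for their role, their place next to the threshold or arrays that did not overlap, after their values were seen. The alternatives changed the scaling (quantile, median centring), the floor (64, or an offset of 16), the genes tested (without those of lowest level), the probe sets (their mean, or all side by side, the latter added after seeing the data), the variance model (trend and robust), the reference (median of 8 tissues) or the samples (a block for title numbers, and without each array).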

Additional observations from a re-analysis of the deposited data

Results flagged for a closer look

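A human probe set outside the comparisons, that of WNT10B, read above the human 95th percentile on all 3 arrays of each of the 9 tissues, with its highest tissue mean at 1117 in spleen. That percentile was taken over the human sets, WNT10B included, so some human sets exceed it on every array by construction. The level of WNT10B varied little, with a log2 range of 0.52, and its correlation with the mouse Wnt10b set over 9 tissue means was -0.397. Mouse Wnt10b itself had a mean intensity of 269.7 and was above that percentile in no tissue.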

How the results depend on the processing

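Leaving out the third of genes with the lowest mean kept 21 members and 382 genes and changed the counts by construction: 3 members were called by the F test and 33 member tests over the tissue pairs, because Fgf12, Fgf13, Fgfr4, Fzd1 and Fzd2 were no longer tested. With the mean of all probe sets of a gene, 2 member tests were called lower against the other 8 tissues (Fzd4 in bone marrow at -1.13 and in testis at -1.12 on the log2 scale). Fgf14 in brain, at 1.08, was then called higher. The other settings left the counts of member calls within 1.5 times those reported. Counts of members by their highest tissue moved more: testis held 9 as deposited, 22 with quantile normalization and 19 with median centring. Members above 0 in lymph node went from 6 to 2 and 1. Quantile normalization called 9 members by the F test, 7 of them shared, median centring 8, 7 shared, and the mean of probe sets 10, 8 shared. Without 1 array in turn, the F test called 7 members (without brain replicate 3, which lost Fgf13) to 9 (without lymph node replicate 1 or 2, which added Fzd7). Deviations of same-numbered arrays from their tissue means correlated at a median of 0.004, against 0.019 for arrays with different title numbers. Of the same-numbered pairs, 23.1% exceeded 0.1. Deviations over 3 arrays also hold the noise of each array, so they cannot show whether same-numbered samples came from the same mouse. With the title number as a replicate block the F test called 8 members, all 8 shared with the fit without it, and the calls against the other 8 tissues (6 higher and 0 lower) and over the pairs (65) had the same counts. No direction reversed under any setting for the 8 called genes. The 2 scalings moved the median gene of a tissue by up to 0.17 and 0.11 on the log2 scale. Levels inside the human background range limit what can be said of 41 members.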
